A study of Mus musculus with 8 samples.

Results

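The 33 genes described here encode the enzymes and carriers of glycolysis, lactate handling, the pentose phosphate pathway, glycogen turnover and the glycerol phosphate step. The tissue was inguinal white adipose tissue, a subcutaneous depot of the groin. A gene was taken where the array annotation gave a probe set its symbol alone, which found 30 of the 33 genes among 18194 genes in all. Gpi1, Eno1 and G6pdx were not matched this way and are not analysed here. Each gene was represented by the probe set with the highest mean over the 8 arrays. The compared groups were 4 male mice deficient in lysophosphatidic acid receptor 4 (Lpar4 -/Y, called KO) and 4 male wild-type littermates (WT). All were on a C57BL/6 background, aged 12 weeks and kept on standard chow. Each mouse gave 1 array, numbered 1 to 4 within its genotype. The deletion is not limited to a cell type by anything the labels state. The values are log2 signals, and every difference is KO minus WT on that scale.

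Adipocytes split glucose through several branches. Glycolysis takes it to pyruvate and lactate, and the triose phosphates on the way also yield glycerol 3-phosphate, the backbone on which triglyceride is built. The oxidative arm of the pentose phosphate pathway makes NADPH, which fatty acid synthesis consumes, and its non-oxidative arm returns sugars to glycolysis. Glycogen is a small store in fat that is filled and emptied around feeding.

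Several facts of the whole series bear on these values. Of the 45101 probe sets, 78.7% had an SD across arrays below 0.01. Genes at or above that limit are called varying here, 24 of the 30 measured members and 5174 of 18194 genes. The other 6 members, Hk1, Pfkl, Aldoc, Pkm, Slc16a3 and Pgls, are called near constant. Lpar4 itself, the deleted gene, had 3 probe sets. The first ran from 5.74 to 5.91 in KO against 6.80 to 7.04 in WT. The other 2 were higher in KO (0.53 and 0.71), and which of the 3 lies in the deleted part is not known here. The mean of 8 measured mature adipocyte markers, which include adiponectin and near-constant Fabp4, lay between 12.38 and 12.43 in all 8 arrays. Of these 8 markers, 2 were called higher in KO and 0 lower by limma over all genes, where 2.39% and 1.64% of all genes were. The 6 keratinocyte and mammary epithelium markers were near constant. The array means of 5 smooth muscle and pericyte markers (9.61 to 9.80 in KO, 10.02 to 10.25 in WT) and of 3 Schwann cell and nerve markers (7.34 to 7.85 and 7.92 to 8.47) did not overlap between the genotypes. The endothelial list was 0.26 lower in KO (9.20 to 9.45 against 9.43 to 9.67), and the macrophage list lay between 9.92 and 10.08 in KO and between 8.91 and 10.33 in WT. Control signals for 18S ribosomal RNA also separated the genotypes, with KO higher in all 3 probe sets (0.44, 0.22 and 0.28). The part of these lists and controls in the results below was not tested.

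Cytosolic glycerol 3-phosphate dehydrogenase Gpd1 (0.63 ± 0.09, SE), liver-type glycogen phosphorylase Pygl (0.57 ± 0.08) and triosephosphate isomerase Tpi1 (0.35 ± 0.06) rose in KO, with n = 4 arrays against 4. They were the only members of the 30 to pass limma at an adjusted p of 0.05 over all genes, and 0 fell. At an unadjusted p under 0.05 11 of the 30 members were higher and 0 lower, where 12.9% and 10.1% of all genes were. The 11 include near-constant Pfkl, with a difference of 0.00031. The 3 make up 10.0% of the members, against 2.39% of all genes called higher and 1.64% called lower. That comparison is uneven, since 24 of the 30 members vary but only 5174 of the 18194 genes do. With the replicate number as a block, limma called 0 of all 18194 genes, and so 0 members. At an unadjusted p under 0.05 this fit had 10 members higher and 2 lower (11.7% and 8.7% of all genes). Near-constant Pfkl was among those higher and near-constant Hk1 among those lower. Same-numbered KO and WT arrays deviated together, though KO 3 correlated more with WT 4 and KO 4 more with WT 3. The labels do not say what a number shares. This block ended all 3 calls. Each of the 8 fits without 1 array also ended the calls of Pygl and Tpi1 over all genes, and Gpd1 passed there only without KO 4 (adjusted p = 0.0497 by limma) or without WT 1 (0.0428). These 8 fits called 10 to 253 of all genes, against 733 with every array. Over the varying genes alone, 7 of 24 members (29.2%) passed higher and 0 lower, where 14.9% and 12.2% of all varying genes did. With the replicate block the varying genes gave 6 members higher (25%) and 1 lower (4.17%), where 10.3% and 9.24% of varying genes passed. In tissue arrays such as these, fewer cells of a type and less RNA per cell cannot be told apart.

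The median difference was 0.11 over the 24 varying members and 0.01 over all 5174 varying genes. In 18 of the 24 the KO mean was the higher one. The branches differed in their medians over varying members. These were 0.03 for glucose entry and hexose phosphates (5 genes), 0.11 from aldolase to pyruvate kinase (5), -0.02 for lactate (3), 0.32 for the pentose phosphate pathway (5), 0.31 for glycogen (4) and 0.37 for the glycerol phosphate genes (2). The last of these medians is the midpoint of 2 unlike genes, Gpd1 (0.63) and Gpd2 (0.11). Whether the branches differ from each other was not tested. In 7 of the 24 varying members (29.2%) every KO array lay above every WT array, and 18.2% of all varying genes did so. They are the same 7 that passed higher over varying genes by limma on these same arrays, so this order adds no further support.

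**Figure D1:**
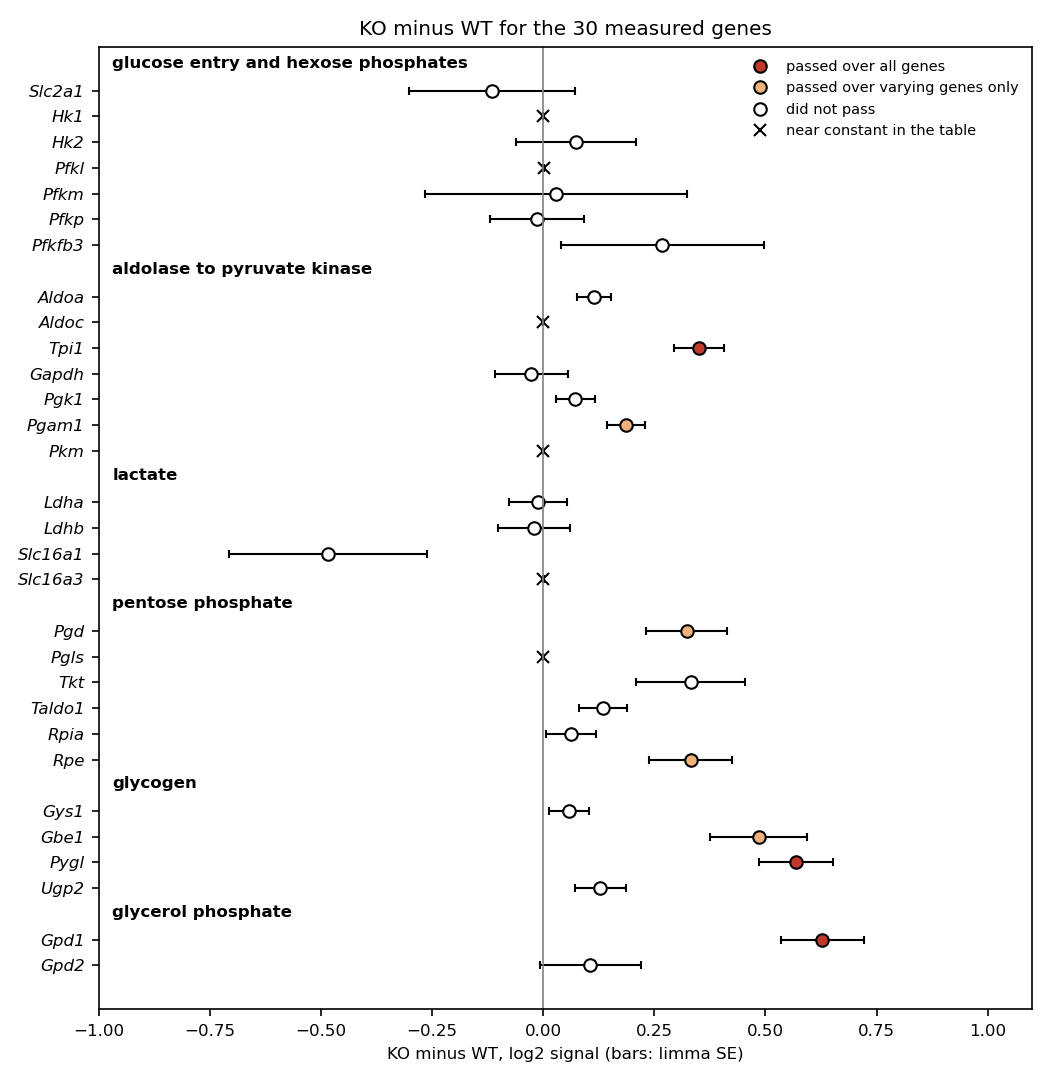
KO minus WT on the log2 signal scale for the 30 measured genes by branch, with the limma standard error as bars (n = 4 arrays against 4). Gpd1, Pygl and Tpi1 passed over all genes without the replicate block, Gbe1, Pgd, Rpe and Pgam1 passed over varying genes only, and the 6 near-constant genes are crosses at 0.

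The promoter windows of Pygl, Gbe1 and Tpi1, from 250 bases before to 50 after the RefSeq start, are shown because, of the members with a window, these 3 had KO means furthest above WT. They lie at chr12:70227634-70227933 (minus strand), chr16:70313699-70313998 (plus strand) and chr6:124814109-124814408 (minus strand) in GRCm38.p6, and read 5′ to 3′ along the gene. Capitals mark each GC box, GGGCGG, and each hypoxia response core, ACGTG, on either strand.
Pygl: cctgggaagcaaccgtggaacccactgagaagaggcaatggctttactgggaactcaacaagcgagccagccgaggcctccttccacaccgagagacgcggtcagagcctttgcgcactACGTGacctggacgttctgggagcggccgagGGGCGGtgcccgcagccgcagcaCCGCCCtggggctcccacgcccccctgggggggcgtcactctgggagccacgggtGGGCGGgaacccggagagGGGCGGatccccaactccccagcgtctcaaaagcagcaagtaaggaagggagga
Gbe1: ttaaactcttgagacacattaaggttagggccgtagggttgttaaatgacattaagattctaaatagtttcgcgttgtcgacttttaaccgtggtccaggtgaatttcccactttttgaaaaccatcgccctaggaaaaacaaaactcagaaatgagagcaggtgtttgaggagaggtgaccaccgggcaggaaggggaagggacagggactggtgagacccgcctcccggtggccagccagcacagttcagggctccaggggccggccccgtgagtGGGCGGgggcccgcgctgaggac
Tpi1: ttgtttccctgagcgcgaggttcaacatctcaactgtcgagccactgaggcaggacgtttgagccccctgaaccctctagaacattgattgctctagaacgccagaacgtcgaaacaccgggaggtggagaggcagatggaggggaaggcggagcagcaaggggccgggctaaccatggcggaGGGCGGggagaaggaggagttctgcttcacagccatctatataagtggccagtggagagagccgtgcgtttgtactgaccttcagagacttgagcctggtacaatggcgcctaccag
The Pygl window held 4 GC boxes and 1 hypoxia response core, and those of Gbe1 and Tpi1 held 1 GC box each. Of the members, 29 were matched to RefSeq windows by symbol, and 25 of them (86.2%) had a GC box in at least 1 window, where 38.2% of all 27025 genes in the table did. The hypoxia response core was found for 17 members (58.6%) and 21.8% of genes, among them Slc2a1, Hk2, Aldoa, Pgk1, Pgam1 and Ldha. The E-box CACGTG, which contains that core, was found for 4 members (13.8%) and 8.09% of genes. The antioxidant response core TGACNNNGC was found for Hk1, Aldoa, Slc16a1 and Pgd (13.8%), and for 14.0% of genes. The table also holds non-coding genes, some genes have several windows, and a match of letters is no evidence of binding.

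Both glycerol phosphate genes were measured, and the cytosolic enzyme was the one that rose. Gpd1 makes glycerol 3-phosphate from dihydroxyacetone phosphate in the cytosol. It read 10.48, 10.47, 10.62 and 10.33 in KO 1 to 4 and 10.04, 9.87, 9.78 and 9.70 in WT 1 to 4. Every KO array was above every WT array, and the difference of 0.63 corresponds to 1.55-fold. The limma adjusted p was 0.0294 over all genes and 0.107 there with the replicate block, and 0.00612 over varying genes, or 0.0227 there when blocked. Over the 28 alternatives run its adjusted p ranged from 0.00612 to 0.107. All 3 varying probe sets of Gpd1 separated the genotypes, with differences from 0.59 to 0.82. The difference was 0.52 within numbers 1 and 2 and 0.74 within numbers 3 and 4. Gpd2, the mitochondrial glycerol 3-phosphate dehydrogenase that completes the shuttle of reducing equivalents, differed by 0.11 (adjusted p = 0.637 over all genes by limma), with KO the higher array in 4 of 4 number pairs.

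The glycogen branch held the second of the 3 calls. Pygl releases glucose 1-phosphate from glycogen. It read 10.06, 9.94, 9.75 and 9.95 in KO 1 to 4 and 9.41, 9.47, 9.20 and 9.34 in WT 1 to 4. The genotypes did not overlap, and the difference of 0.57 corresponds to 1.48-fold. The limma adjusted p of Pygl was 0.0290 over all genes, 0.0719 there with the replicate block, and 0.00619 and 0.0192 over varying genes without and with it, with a range of 0.00598 to 0.0730 over the alternatives. The difference was as large within numbers 1 and 2 (0.56) as within numbers 3 and 4 (0.58).

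Gbe1, the branching enzyme, adds the side chains that make glycogen soluble. It read 8.90, 8.58, 8.71 and 8.54 in KO 1 to 4 and 8.20, 8.002, 8.21 and 8.38 in WT 1 to 4. All KO arrays lay above all WT arrays, by 0.49 ± 0.11 (SE, n = 4 against 4) or 1.40-fold. Gbe1 missed the limma threshold over all genes (adjusted p = 0.0645) and passed over varying genes, unblocked (0.0163) and blocked (0.0370); its range over the alternatives was 0.0163 to 0.172. Ugp2, which makes the UDP-glucose donor, differed by 0.13 and muscle-type glycogen synthase Gys1 by 0.06, with limma adjusted p of 0.254 and 0.499 over all genes. All 5 varying probe sets of Ugp2 were higher in KO, by 0.13 to 0.24, but none separated the genotypes. In this branch 1 of 4 genes passed higher over all genes (2.39% of all genes did) and 2 of 4 over varying genes (14.9% of varying genes did).

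**Figure D2:**
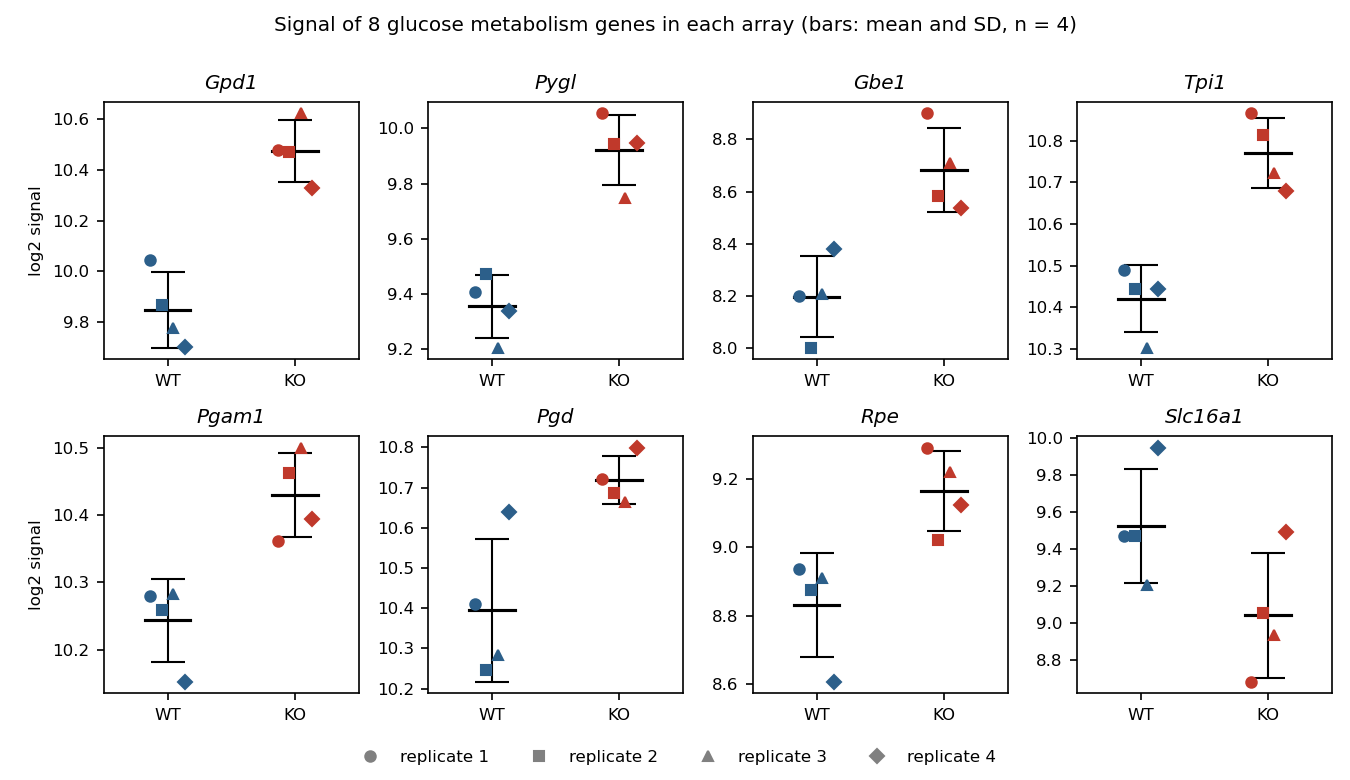
Log2 signal in each array for 8 members, with WT in blue and KO in red, the symbol shape giving the replicate number and bars the mean and SD (n = 4). In Gpd1, Pygl, Gbe1, Tpi1, Pgam1, Pgd and Rpe every KO array lies above every WT array. In Slc16a1 the groups overlap, with each KO array below the WT array of its number. The 8 genes were picked by tests on these same arrays.

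In the pentose phosphate pathway 6 of 7 genes were measured and 0 passed over all genes, while 2 of the 5 varying ones passed higher over varying genes, where 14.9% of varying genes did. All 5 varying genes had the higher mean in KO. Pgd, 6-phosphogluconate dehydrogenase, carries out the second NADPH-forming step. It read 10.72, 10.69, 10.66 and 10.80 in KO 1 to 4 and 10.41, 10.25, 10.28 and 10.64 in WT 1 to 4, so that WT 4 came close to the KO arrays without reaching them. The difference was 0.32 ± 0.09 (SE, n = 4 against 4), or 1.25-fold. Its limma adjusted p was 0.105 over all genes, 0.0329 over varying genes and 0.0342 there with the replicate block, with a range of 0.0152 to 0.215 over the alternatives. Over varying genes it passed in only 1 of the 8 fits that each left out 1 array, the one without WT 4 (0.40), so no call of Pgd held under the other 7. All 4 probe sets of Pgd were higher in KO, by 0.28 to 0.33, and 2 of them separated the genotypes.

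Rpe, ribulose-phosphate 3-epimerase, belongs to the non-oxidative arm. It read 9.29, 9.02, 9.22 and 9.12 in KO 1 to 4 and 8.94, 8.87, 8.91 and 8.61 in WT 1 to 4. The groups did not overlap, and both varying probe sets showed this (0.33 and 0.35). The limma adjusted p of Rpe was 0.104 over all genes, 0.0324 over varying genes and 0.0401 there with the replicate block, with a range of 0.0324 to 0.225 over the alternatives; over varying genes it passed without KO 2, WT 1, WT 3 or WT 4, and leaving out any of the other 4 arrays ended the call (0.0563 to 0.0826). Transketolase Tkt read 11.39, 11.41, 11.19 and 11.38 in KO 1 to 4 and 10.85, 10.83, 11.03 and 11.34 in WT 1 to 4. It differed by as much (0.33 ± 0.12, SE) but missed the threshold in the same 3 fits (adjusted p = 0.180, 0.0647 and 0.0863 by limma), and over varying genes it passed only without WT 4 (0.0200). WT 4 lay above KO 3, and the difference was 0.56 within numbers 1 and 2 and 0.11 within numbers 3 and 4. Transaldolase Taldo1 (0.13) and ribose-5-phosphate isomerase Rpia (0.06) did not pass, and Pgls, the lactonase, was near constant at 9.45.

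None of the 7 measured genes at the entry of glycolysis passed over all genes or over varying genes, with or without the replicate block. The glucose carrier Slc2a1 differed by -0.12, hexokinase Hk2 by 0.07, platelet-type phosphofructokinase Pfkp by -0.01 and Pfkfb3, which makes the phosphofructokinase activator fructose 2,6-bisphosphate, by 0.27, with limma adjusted p from 0.545 to 0.953 over all genes. Slc2a1 was highest in WT 3 at 9.15, against 8.39 to 8.82 in the other 7 arrays, and without WT 3 the sign of its difference turned (0.04). All 3 probe sets of Slc2a1 had the lower mean in KO. Pfkfb3 ranged from 10.24 in KO 4 to 11.14 in KO 3, so KO alone spanned the whole range of the 8 arrays. Hk1, which is expressed in most tissues, and liver-type phosphofructokinase Pfkl were near constant at 7.96 and 7.01. With numbers 1 and 2 blocked against 3 and 4, limma over all genes called 4 members, Gpd1, Pygl, Tpi1 and Pfkl (adjusted p = 0.0488), and the Pfkl difference in that call was 0.00031.

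From aldolase to pyruvate kinase the difference lay in Tpi1 and, less firmly, in Pgam1. Tpi1 interconverts the triose phosphates, of which dihydroxyacetone phosphate is the substrate of Gpd1. It read 10.87, 10.81, 10.72 and 10.68 in KO 1 to 4 and 10.49, 10.44, 10.30 and 10.45 in WT 1 to 4. The groups did not overlap, and the difference of 0.35 corresponds to 1.28-fold. The limma adjusted p of Tpi1 was 0.0346 over all genes, 0.0981 there with the replicate block, and 0.0107 and 0.0265 over varying genes without and with it, with a range of 0.00856 to 0.0981 over the alternatives. When its probe sets were averaged it was not called over all genes. All 3 probe sets of Tpi1 separated the genotypes, by 0.34 to 0.38. Their suffixes mark probes shared between transcripts, so related transcripts can contribute to them. All 4 probe sets of Pgd and the ones used for Tkt, Aldoa, Pgk1, Pgam1 and Gbe1, among others, carry such suffixes too.

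Pgam1, phosphoglycerate mutase, read 10.36, 10.46, 10.50 and 10.40 in KO 1 to 4 and 10.28, 10.26, 10.28 and 10.15 in WT 1 to 4. The groups did not overlap, but the difference was small (0.19 ± 0.04, SE, or 1.14-fold). Its limma adjusted p was 0.0672 over all genes, 0.0350 over varying genes and 0.0585 there with the replicate block, so the block ended the call; the range over the alternatives was 0.0350 to 0.152. Leaving out any array but KO 1 (0.0495) also ended the call over varying genes (0.0501 to 0.0916). Aldolase Aldoa (0.11), phosphoglycerate kinase Pgk1 (0.07) and glyceraldehyde-3-phosphate dehydrogenase Gapdh (-0.03) did not pass, with limma adjusted p of 0.148, 0.393 and 0.883 over all genes. Aldoa was higher in KO in 4 of 4 number pairs and in all 4 of its varying probe sets, by 0.10 to 0.25. Of these probe sets 1 separated the genotypes, but the one used here did not. Aldoc, the brain-enriched aldolase, and Pkm were near constant at 6.39 and 8.40.

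Gapdh was read only by the 3 control probe sets along its transcript, which also follow RNA integrity. The 3′ minus 5′ difference in log2 signal was 0.87, 0.66, 0.63 and 0.70 in KO 1 to 4 and 0.66, 0.70, 0.77 and 0.66 in WT 1 to 4. KO 1 had the largest gap for Gapdh, and also for the beta-actin controls (1.33, against 1.08 to 1.25 in the other arrays). The genotype means of the Gapdh gap were close, 0.71 ± 0.11 in KO and 0.70 ± 0.05 in WT (SD, n = 4). The Gapdh value in KO 1, at 10.76, was the lowest of the 8, and without it the difference was 0.05 in place of -0.03. Gpd1, Pygl, Gbe1 and Tpi1 passed over varying genes without KO 1 as well as without each other array.

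None of the 4 lactate genes passed over all genes. Ldha and Ldhb, the subunits of lactate dehydrogenase, differed by -0.01 and -0.02, with limma adjusted p of 0.938 and 0.912 over all genes, and their signs turned when single arrays were left out. The lactate exporter Slc16a3 was near constant at 6.44. Slc16a1, the monocarboxylate transporter that moves lactate and ketone bodies across the membrane, read 8.68, 9.05, 8.94 and 9.49 in KO 1 to 4 and 9.47, 9.47, 9.21 and 9.95 in WT 1 to 4. The groups overlapped, yet KO was the lower array in each number pair. The difference was -0.49 ± 0.22 (SE, n = 4 against 4), with limma adjusted p of 0.260 over all genes, 0.103 over varying genes and 0.0342 there with the replicate block, the one member to pass lower with the block. Its adjusted p ranged from 0.0342 to 0.466 over the alternatives, and it had 1 varying probe set. Unblocked, it passed over varying genes only without KO 4 (0.0471).

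Of the members 1 followed skeletal muscle RNA across the replicate numbers. The mean of 21 skeletal muscle markers lay between 8.49 and 9.16 in the 4 arrays numbered 1 or 2 and between 6.38 and 6.98 in the 4 numbered 3 or 4. Creatine kinase Ckm, for example, was higher in numbers 1 and 2 by 2.38 in KO and by 2.35 in WT. Of the 20 varying markers 20 had all arrays numbered 1 or 2 above all those numbered 3 or 4. The genotype difference of the list was 0.09 (two-sided exact permutation p = 0.886, n = 4 against 4), and leaving out KO 1, KO 2, WT 3 or WT 4 turned its sign (-0.16, -0.38, -0.33 and -0.18).

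Muscle-type phosphofructokinase Pfkm read 8.29, 8.67, 7.86 and 7.66 in KO 1 to 4 and 8.43, 8.45, 7.69 and 7.81 in WT 1 to 4. All arrays numbered 1 or 2 were above all numbered 3 or 4, by 0.72 in KO and 0.69 in WT, and the genotype difference was 0.03 (limma adjusted p = 0.967 over all genes). Pfkm was the 1 varying member of 24 (4.17%) with this order, which 2.90% of all varying genes had. Among the other listed pathway genes the order appeared in 4 of 47 varying genes (8.51%): the muscle isoforms Eno3, Pgam2 and Pygm, and the muscle fructose bisphosphatase Fbp2. Eno3 was higher in numbers 1 and 2 by 1.20 in KO and 1.004 in WT, Pgam2 by 1.12 and 0.90, Pygm by 0.84 and 0.91, and Fbp2 by 0.42 and 0.45. Phka1 and Phkg1, the muscle phosphorylase kinase subunits, were near constant. Hexokinase Hk2, also abundant in muscle, did not show the order, with 0.09 in KO and -0.06 in WT. With the muscle list mean as a covariate, limma over varying genes called the same 7 members higher as without it.

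**Figure D3:**
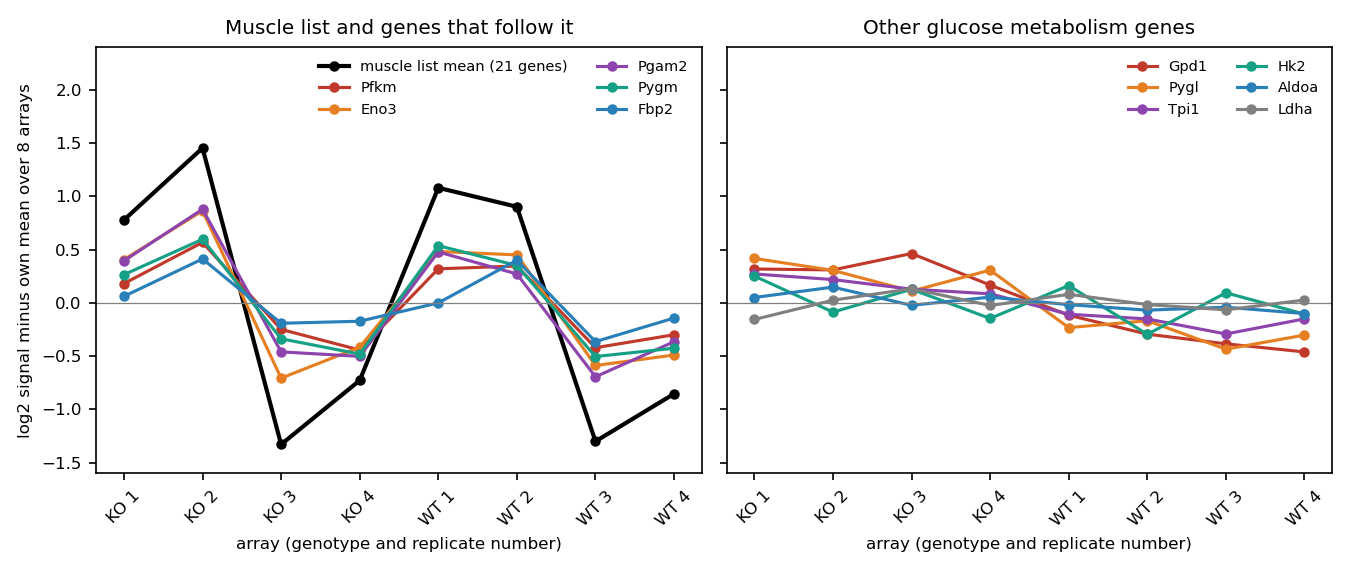
Log2 signal minus each gene's own mean over the 8 arrays, by genotype and replicate number. The mean of 21 muscle markers, Pfkm, Eno3, Pgam2, Pygm and Fbp2 are high in arrays 1 and 2 of both genotypes, whereas Gpd1, Pygl and Tpi1 are high in the 4 KO arrays and Hk2, Aldoa and Ldha follow neither order fully.

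The enzymes next to these branches were read from a further list of 91 pathway genes, 84 of them measured and 47 varying. Over all genes 5 of the 84 (5.95%) rose and 0 fell by limma, where 2.39% and 1.64% of all genes did. At an unadjusted p under 0.05, 21 were higher and 7 lower (12.9% and 10.1% of all genes). Near-constant genes were among them, such as Rbks (higher) and Phkg2 (lower). With the replicate block 0 passed, as did 0 of all 18194 genes, with 19 higher and 4 lower unadjusted (11.7% and 8.7%). Over varying genes 13 of 47 (27.7%) passed higher and 1 (2.13%) lower, where 14.9% and 12.2% of varying genes did, and with the block 12 (25.5%) and 0, where 10.3% and 9.24% did. The 5 were pyruvate carboxylase Pcx, which opens glyceroneogenesis (0.87 ± 0.09, SE), NADP-dependent malic enzyme Me1 (0.47 ± 0.06), the transcription factor Nfe2l2, which drives antioxidant and NADPH genes (0.29 ± 0.05), and the pyruvate dehydrogenase subunits Dlat (0.28 ± 0.05) and Dld (0.27 ± 0.05). Their limma adjusted p over all genes ran from 0.0140 for Pcx to 0.0454 for Dld. In each of the 5 every KO array was above every WT array, an order that 18.2% of all varying genes had. The 5 were picked by a test on these same arrays, so this order adds no further support.

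The genes that passed over varying genes only are named after their values were seen. Around glucose entry and glycogen they were the insulin-responsive glucose carrier Slc2a4 (0.45), phosphoglucomutase Pgm1 (0.32), liver-type glycogen synthase Gys2 (0.19) and, as the lower one, the glycogen-binding protein Stbd1 (-0.32). The replicate block ended the calls of Gys2 (limma adjusted p = 0.0598) and Stbd1 (0.0585). Around pyruvate they were the mitochondrial pyruvate carrier Mpc1 (0.34), Pdhb (0.23), Pdhx (0.40) and D-lactate dehydrogenase Ldhd (0.64), and for NADPH isocitrate dehydrogenase Idh1 (0.46). The pyruvate dehydrogenase kinase Pdk4, which switches that complex off, differed by -0.75 and did not pass over varying genes (0.0520 without and 0.0521 with the block). The median difference was 0.16 over the 47 varying pathway genes, against 0.01 over all varying genes. Of the 6 varying regulators of these genes, 4 had the lower mean in KO; the median was -0.09, and Nfe2l2 was the one that passed.

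**Figure D4:**
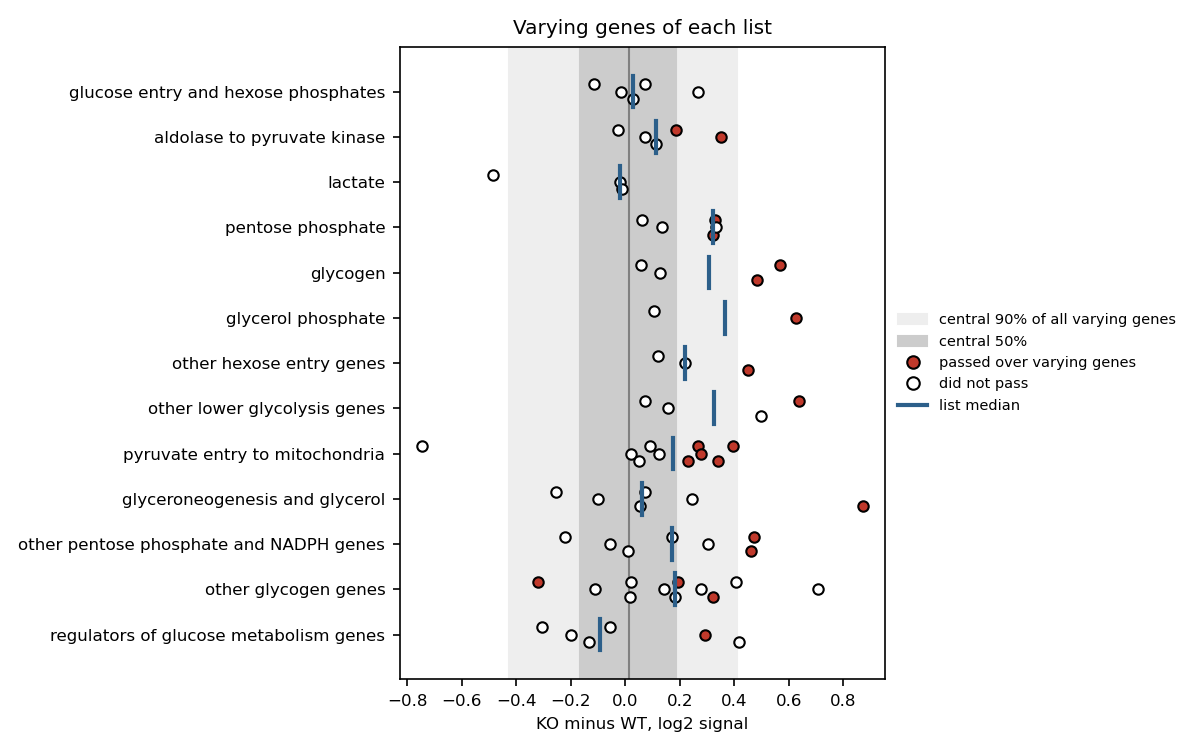
KO minus WT on the log2 signal scale for the 24 varying members (upper 6 rows) and 47 varying other pathway genes (lower 7 rows), with list medians as blue lines. Grey bands show the central shares of the 5174 varying genes, around a median of 0.01; the pentose phosphate, glycogen and glycerol phosphate medians lie at 0.32, 0.31 and 0.37.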

How the data were processed

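Whole-tissue RNA was amplified from 100 ng per sample and labelled with biotin for a 3' expression array, per the labels. The authors deposited log2 values for 45101 probe sets in 8 arrays; the log2 scale was read from the values (4.93 to 14.3, array medians 6.73 to 6.74). The submitters' processing notes name R 2.14.0. Background correction, normalisation and summarisation were not given in the sources used here.

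Annotation of the platform named 34958 probe sets with a single gene and 932 with several. The genotypes were compared in limma 3.58.1 (lmFit, eBayes, two-sided) in R 4.3.3, Benjamini-Hochberg adjusted over all 18194 genes, threshold 0.05, without a block. The unblocked test was run on simulated data with independent noise. Those data held no replicate-number pattern, so that run cannot speak to the choice of block. The members, lists, alternatives and the limit of 0.01 on the SD were chosen with earlier results of these data known. All members are named, with per-array values for those passing over all or over varying genes, with or without the replicate block, and for Tkt and Pfkm.

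After subtracting each genotype's mean, same-numbered arrays correlated at 0.315, 0.486, 0.189 and 0.245 across genes. The main fit did not treat the numbers as pairs, and only the fits with the replicate block did. The ground for that block comes from the data, since the labels do not say what a number shares. For KO 3 the correlation was higher with WT 4 (0.364), and for KO 4 with WT 3 (0.266). Each label names a biological replicate. Precision is limited by the number of arrays. No detection calls were used, so signal over background is not known.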

Additional observations from a re-analysis of the deposited data

Results flagged for a closer look

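An array far from the other 3 of its genotype was found in 2 of 56 sets of 4 values (24 members and 4 summary measures in each genotype); chance gives about 1 in 20. Transketolase Tkt read 11.19 in KO 3, low against 11.38 to 11.41 in the other KO arrays. Ugp2 read 10.34 in KO 4, low against 10.45 to 10.47 in the other KO arrays.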

How the results depend on the processing

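Counts of members higher in KO depended on the fit. From 3 over all genes they became 0 with the replicate block, 7 over varying genes, 6 there with the replicate block, and 7 there when numbers 1 and 2 were blocked against 3 and 4 or with the muscle list mean as a covariate. Leaving out 1 array gave 0 to 1 over all genes (Gpd1 without KO 4 or WT 1, Pgd without WT 4) and 4 to 7 over varying genes. Members lower were 0, but 1 over varying genes with the replicate block, and 0 to 1 there without 1 array. Other pathway genes higher went from 5 to 0 with the replicate block, 3 with the number split or the muscle covariate, 13 over varying genes alone, with the split or with the covariate, and 12 with the block; without 1 array they were 0 to 3, or 7 to 14 over varying genes. Those lower went from 0 to 1 over varying genes, with the split and with the covariate, and to 0 to 2 without 1 array. All genes called went from 733 to 0 with the replicate block, 352 with the muscle covariate, 1402 over varying genes, 1417 there with the split and 1310 with the covariate. Without 1 array 10 to 253 genes passed over all genes and 636 to 1149 over varying genes.

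The muscle list difference ran from -0.38 to 0.54 without 1 array. Signs turned without 1 array for Slc2a1 (-0.21 to 0.039), Hk2 (-0.014 to 0.14), Pfkm (-0.16 to 0.18), Pfkp (-0.092 to 0.049), Gapdh (-0.065 to 0.047), Ldha (-0.058 to 0.038) and Ldhb (-0.059 to 0.040), none of them called, and for Ldha with quantile normalization (0.016). The cause of each change was not tested. The fits over varying genes other than the plain one and the one with the replicate block were chosen after seeing the data. Averaging probe sets, other probe sets, quantile normalization, the signal filter and the variance model left 2 to 4 members higher.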
